A study of Mus musculus with 10 samples.

Results

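Transcripts of 10 enzymes and carriers of mitochondrial fatty acid oxidation were followed in mouse hematopoietic stem cells (HSCs), the marrow cells that renew all blood lineages. The members form a list of core enzymes and were found by gene symbol: Cpt1a, Cpt2, Slc25a20, Acadm, Acadl, Acadvl, Hadha, Hadhb, Hadh and Acaa2. All 10 were among the 20270 genes of the deposited table, and all 10 passed the filter on low values that left 15143 genes for testing. The clearest difference in the list was in Cpt1a, the gene for the entry enzyme of the pathway. Its level was lowest in KO-labelled normal HSCs, and it rose in KO-labelled stressed against KO-labelled normal HSCs.

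The libraries came from C57BL/6 mice that had received lineage-depleted bone marrow cells from Id1-/- (KO) or Id1+/+ (WT) donors, and HSCs were sorted from the primary recipients. Groups were KO-labelled stressed (2 libraries), WT-labelled stressed (2), KO-labelled normal (3) and WT-labelled normal (3) HSCs. All recipients had thus been through transplantation, which the sample labels place 4 weeks and the series design 6 weeks before collection. The labels give no definition of normal and stressed, no sorting markers, no age, no conditioning of the recipients, and no statement on whether a library is 1 animal or a pool. The p-values therefore measure the spread between these libraries only, which may be technical.

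Fatty acid oxidation shortens fatty acids in the mitochondrial matrix and passes acetyl-CoA to the citric acid cycle and electrons to the respiratory chain. Long-chain fatty acids, activated to acyl-CoA, enter as carnitine esters made by CPT1, carried by the SLC25A20 translocase and turned back to acyl-CoA by CPT2. Acyl-CoA dehydrogenases, a hydratase, 3-hydroxyacyl-CoA dehydrogenases and thiolases then act in turn on each round. In mouse HSCs this pathway is known to be needed for stem cell maintenance, and CPT1 is its main point of control because malonyl-CoA, the first product of fatty acid synthesis, inhibits it.

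Levels are in CPM (read counts scaled to library size), here with one distribution of values shared by all libraries, as quantile normalization gives. By the depth estimated at low values, 1 CPM stood for 25.7 to 33.0 reads. By that estimate the lowest member value of any library, 38.6 CPM, rested on about 1160 reads, though the estimate was not checked at such levels. KO-labelled normal replicate A lay far from the rest on the third principal component (-100, against -12.9 to 31.3 for the others). WT-labelled stressed replicate A lay apart on the second (-83, against -20.3 to 60.8). Calls in comparisons that use these libraries are given with and without them. Markers of HSCs were present, with 10 of 10 above 1 CPM in every library. Their summed level was 3490 to 3600 CPM in KO-labelled stressed, 3800 to 3880 in WT-labelled stressed, 4030 to 4320 in KO-labelled normal and 4750 to 5030 in WT-labelled normal libraries. In such bulk samples fewer cells of a type and less RNA per cell cannot be told apart. Id1, the targeted gene, went against a loss of the whole transcript. It stood at 8.44 to 9.06 and 9.62 to 13.2 CPM in KO-labelled stressed and normal libraries, against 1.28 to 4.39 and 1.35 to 3.17 CPM in WT-labelled stressed and normal ones. Which part of the gene these reads cover is unknown, so directions between genotypes follow the labels.

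The promoter stretches of the members that the comparisons turn on are shown first. Cpt1a (ENSMUSG00000024900.4) lies on chromosome 19 at 3322334 to 3385733, Acadl (ENSMUSG00000026003.5) on chromosome 1 at 66830839 to 66863277, and Hadha (ENSMUSG00000025745.11) and Hadhb (ENSMUSG00000059447.13) on chromosome 5 at 30118304 to 30155162 and 30155248 to 30184593, all protein-coding genes in mm10 with GENCODE vM21 coordinates. Hadha and Hadhb are transcribed away from each other, with 85 bases between their annotated starts, and that gap is shown whole because the differences of these neighbours between genotypes had opposite signs in normal HSCs. The sequences are from RefSeq's GRCm38.p6 promoter table, written 5′ to 3′ on the strand of the gene (of Hadhb for the gap), and capitals mark E-boxes, the CANNTG motif that E proteins, the partners of ID1, bind. The Cpt1a stretch is chr19:3323051-3323284, ending before the start of the principal transcript. It lies inside the annotated span of Cpt1a, which begins further upstream at 3322334. The Acadl stretch is chr1:66863310-66863559 and the gap is chr5:30155163-30155247.
Cpt1a: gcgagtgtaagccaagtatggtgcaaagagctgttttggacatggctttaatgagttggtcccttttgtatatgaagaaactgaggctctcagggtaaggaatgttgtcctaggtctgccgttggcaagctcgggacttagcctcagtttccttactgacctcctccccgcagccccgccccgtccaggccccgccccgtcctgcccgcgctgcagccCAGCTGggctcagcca
Acadl: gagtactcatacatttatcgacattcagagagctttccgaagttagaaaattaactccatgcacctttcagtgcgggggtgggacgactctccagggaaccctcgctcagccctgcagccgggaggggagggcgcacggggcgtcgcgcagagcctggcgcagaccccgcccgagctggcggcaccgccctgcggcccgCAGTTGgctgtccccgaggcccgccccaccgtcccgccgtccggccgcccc
Hadha-Hadhb gap: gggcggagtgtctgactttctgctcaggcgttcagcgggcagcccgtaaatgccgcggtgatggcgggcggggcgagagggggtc

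The Cpt1a stretch held 1 E-box, of the form CAGCTG, starting 32 bases before the RefSeq start, and the Acadl stretch held 1 E-box. The gap between Hadha and Hadhb held none. Both strands were searched, and CAGCTG and CAGGTG are forms of CANNTG. Among the 250 bases before the start of 9 members with a window in the table, CANNTG occurred in 4, against 66.2% of all 32851 windows. CAGCTG occurred in 1 of the 9, against 13% of all windows, and CAGGTG in 1, against 17.2%. AGGTCA, the half-site of nuclear receptors such as the PPARs, occurred in 3 of the 9 (Cpt1a, Acadm and Acadvl), against 14% of all windows. The DR1 element of the PPARs, that sequence repeated after 1 base of any kind, occurred in 0 of the 9 and in 0.0335% of all windows. For the last 85 bases before a start, CANNTG occurred in 29.8% of windows. These matches describe letters only.

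The members were all well expressed. Mean levels stood between the 75.0th percentile of the table's genes (Cpt2) and the 96.5th percentile (Cpt1a). Per kilobase of annotated exon, which allows genes to be compared, Acadl was highest with a median over the 10 libraries of 87.9 CPM per kb, ahead of Acaa2 with 62.2, Acadm with 40.6, Cpt1a with 32.1 and Acadvl with 31.1 CPM per kb. Hadh followed with 24.8, Cpt2 with 24.1, Hadhb with 17.3, Hadha with 12.6 and Slc25a20 with 12.5 CPM per kb. The order of Acadl over Acaa2, Acaa2 over Acadm, Acadm over Cpt1a and Hadhb over Hadha held in 10 of 10 libraries. Cpt1a stood above Acadvl in 6 of 10 libraries, Hadh above Cpt2 in 6 and Hadha above Slc25a20 in 4, so these neighbours were not separated. Exon length is the union over all annotated transcripts.

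Values of a few members carry limits of mapping. Acadvl shares 42.9% of its exon bases with Dvl2 on the opposite strand, and the counting is not stated to use strand. Hadha shares 0.859% of its exon bases with Garem2. Gm13910 is 99.79% identical to Hadhb over 1428 bases and reached at most 1.68 CPM, against at least 96.3 CPM for Hadhb. Gm9108 is 97.6% identical to Hadhb over 1426 bases, and Gm5131 is 93.5% identical to Acadm over 681 bases. Neither of these copies is among the deposited genes, so their levels are unknown.

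**Figure D1:**
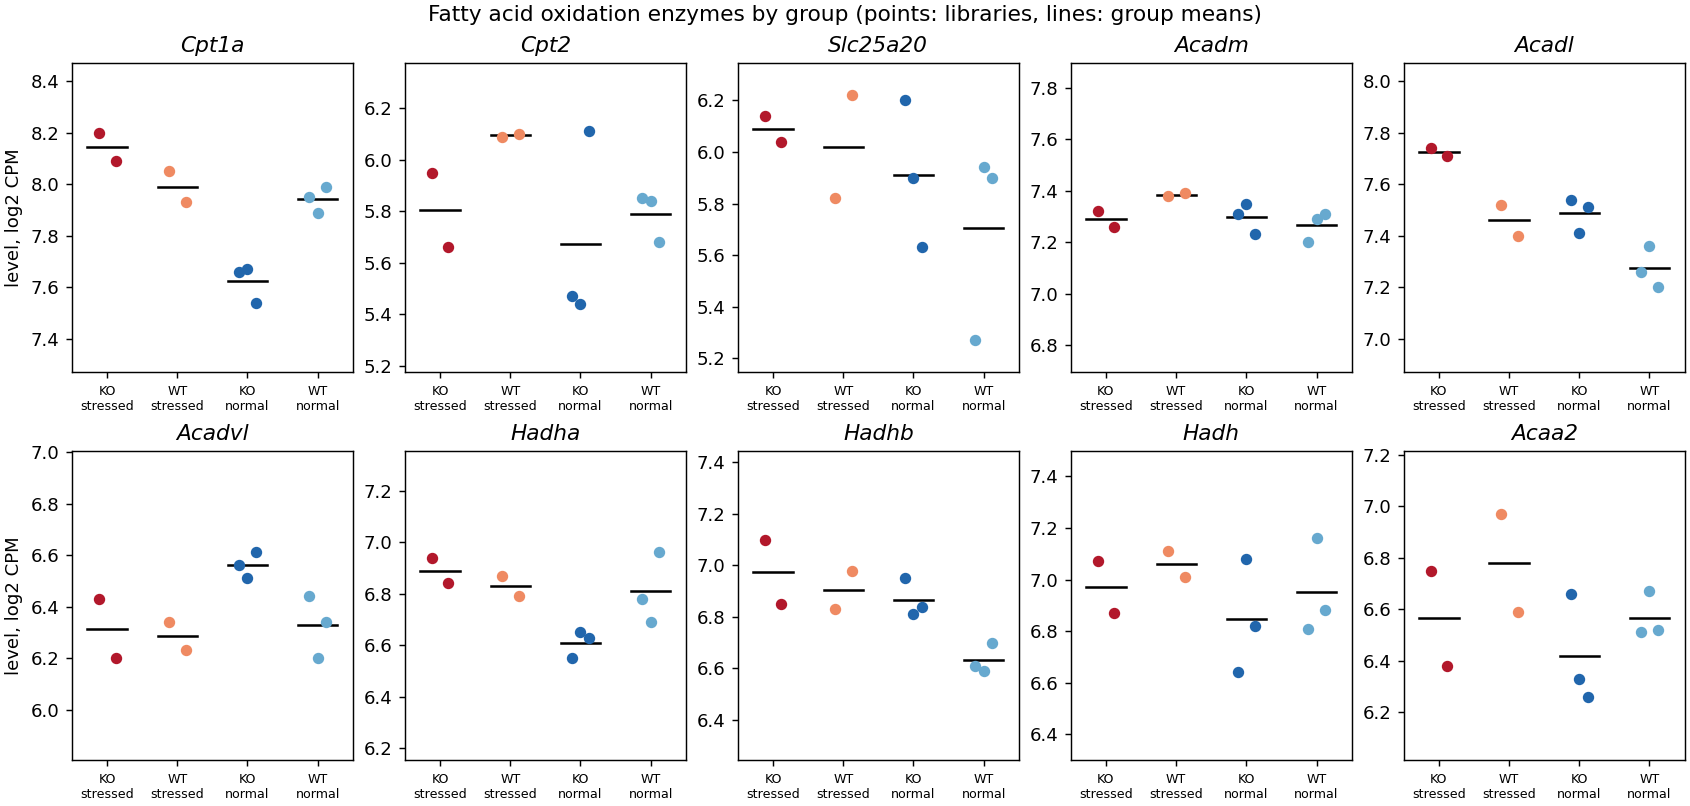
Levels of the 10 members in log2 CPM (vertical axis, the same span of values in each panel) in KO-labelled stressed, WT-labelled stressed, KO-labelled normal and WT-labelled normal HSCs, with points for libraries and lines for group means. Cpt1a lies at 7.54 to 7.67 in the KO-labelled normal libraries and above that in all others, while Acadm spans only 7.20 to 7.39 over all 10 libraries.

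Cpt1a encodes carnitine palmitoyltransferase 1A, the enzyme of the outer mitochondrial membrane that commits long-chain acyl-CoA to oxidation. Replicates A and B had 294 and 272 CPM in the KO-labelled stressed group and 266 and 244 CPM in the WT-labelled stressed group. Replicates A, B and C had 202, 203 and 187 CPM in the KO-labelled normal group, against 246, 237 and 254 CPM in the WT-labelled normal group. All 3 KO-labelled normal libraries were thus lower than the other 7, the WT-labelled groups overlapped each other, and both KO-labelled stressed libraries were higher than all others.

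How the stress condition changed the members was compared within each genotype. In KO-labelled HSCs Cpt1a rose by 0.52 on the log2 scale, which is 43.3% (SE 0.071, 95% interval 0.36 to 0.68), with mean log2 CPM of 8.14 ± 0.08 (SD, n = 2) in stressed against 7.62 ± 0.07 (SD, n = 3) in normal libraries, and limma adjusted p = 0.00186. It was the 118th smallest p of the 15143 genes. Cpt1a was the 1 member of 10 called, against 4.50% of all genes tested. The call held in all 20 refitted alternatives and at both other thresholds, with differences between 0.46 and 0.58 and adjusted p between 0.000954 and 0.0341 in limma. Markers of megakaryocytes moved with the condition in both genotypes: all 4 were above 1 CPM in every library, and their sum was 1090 to 1110 CPM in KO-labelled stressed against 581 to 632 CPM in KO-labelled normal libraries, and 1030 to 1040 CPM in WT-labelled stressed against 638 to 680 CPM in WT-labelled normal libraries. Of 6 B and plasma cell markers 5 were measured, with a sum of 158 to 164 CPM in KO-labelled stressed and 2.80 to 4.98 CPM in KO-labelled normal libraries. The 6 erythroid markers summed to 155 to 169 CPM in KO-labelled stressed and 210 to 222 CPM in KO-labelled normal libraries, and the 8 granulocyte and monocyte markers to 388 to 393 against 430 to 473 CPM in the same groups. The summed HSC markers were lower in stress as given above. Single markers did not all follow these sums in KO-labelled HSCs. Mpo had 24.7 and 24.0 CPM in stressed against 16.3, 15.5 and 14.5 CPM in normal libraries. Epor had 50.7 and 43.5 against 32.4, 29.8 and 38.8 CPM in the same groups. Slamf1 had group means of 80.9 against 69.4 CPM, and Meis1 of 659 against 654 CPM. The granulocyte and monocyte sum was mostly Lyz2, with 271 and 283 against 338, 299 and 307 CPM. The part of these cell types in the change of Cpt1a was not tested. Without replicate A of the KO-labelled normal group the change was 0.54 (limma adjusted p = 0.00389).

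In WT-labelled HSCs the difference of Cpt1a between stressed and normal was 0.05 (SE 0.071, 95% interval -0.10 to 0.21, limma adjusted p = 0.769), with mean log2 CPM of 7.99 ± 0.09 (SD, n = 2) in stressed against 7.94 ± 0.05 (SD, n = 3) in normal libraries. Over the list 0 of 10 members were called there by limma, against 3.30% of all genes, and 2 of 10 had an unadjusted p under 0.05, against 16.8% of all genes. Without WT-labelled stressed replicate A the difference of Cpt1a was -0.01 (limma adjusted p = 0.980). The difference between the KO-labelled and WT-labelled changes was 0.47 for Cpt1a (SE 0.10, 95% interval 0.25 to 0.69). Its unadjusted p of 0.000701 was the 55th smallest of all genes, but it did not pass over all genes (limma adjusted p = 0.190, between 0.164 and 0.460 in 19 alternatives). Of the 10 members 0 passed limma's test of that difference, and 0.0198% of all genes did. At an unadjusted p under 0.05 stood 1 member (Cpt1a) and 9.15% of all genes.

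Between genotypes in the normal condition Cpt1a was the 1 member of 10 called, against 1.56% of all genes tested. In KO-labelled normal HSCs it fell by 0.32 on the log2 scale relative to WT-labelled normal HSCs, so that its level fell by 19.7% (SE 0.064, 95% interval -0.46 to -0.18, limma adjusted p = 0.0320). This call did not hold throughout: it was lost when KO-labelled normal replicate A or C was left out (limma adjusted p = 0.0571 and 0.112), when any WT-labelled normal replicate was (0.119, 0.0738 and 0.143 for A, B and C), and when KO-labelled stressed replicate A or B was (0.0530 and 0.0527), which enter only through the shared spread. It was also lost in a fit of the compared groups alone (0.0819), without a variance trend (0.175), and with the values corrected for gene length (-0.26, limma adjusted p = 0.119). Over the 20 refitted alternatives the adjusted p in limma ran between 0.0220 and 0.175, and the sign stayed. Summed granulocyte and monocyte markers were 430 to 473 CPM in KO-labelled and 338 to 379 CPM in WT-labelled normal libraries (8 of 8 measured). The 4 megakaryocyte markers summed to 581 to 632 against 638 to 680 CPM in the same groups, and the HSC marker sum was lower in KO-labelled normal libraries as given above. Pf4 and Ly6a went against their sums. Pf4 had 138, 138 and 152 CPM in KO-labelled against 129, 127 and 124 CPM in WT-labelled normal libraries. Ly6a had 156, 163 and 146 against 137, 125 and 132 CPM. The part of these cell types in the difference was not tested. In the stressed condition Cpt1a differed by 0.15 (SE 0.078, 95% interval -0.02 to 0.32, limma adjusted p = 0.623). There 0 of 10 members and 0.145% of all genes passed limma's test, and 1 member (Acadl) and 8.88% of all genes had an unadjusted p under 0.05.

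**Figure D2:**
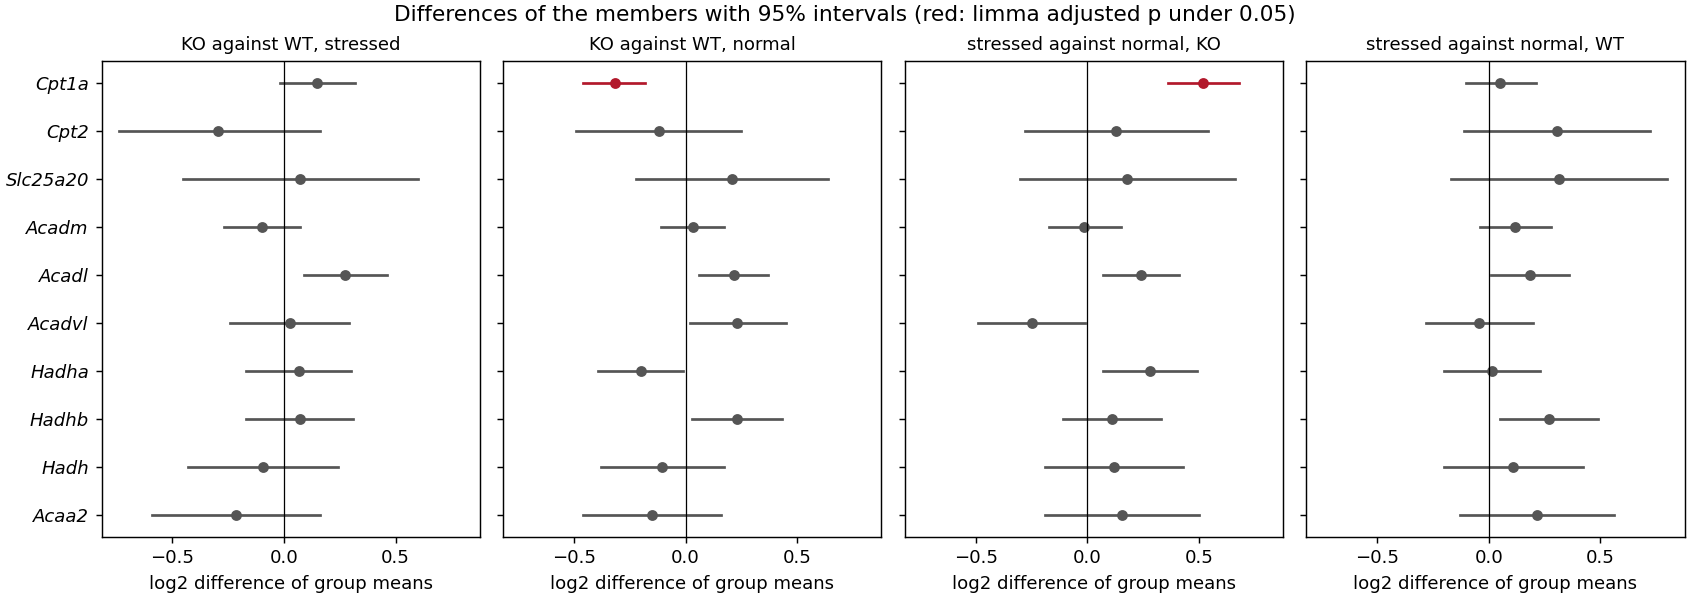
Log2 differences of group means for the 10 members (horizontal axis) in the 4 pairwise comparisons, with 95% intervals from the limma fit, red where the adjusted p was under 0.05. Cpt1a is red at 0.52 for stressed against normal in KO-labelled HSCs and at -0.32 for KO against WT in normal HSCs, and no other member is red.

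The remaining steps of the carnitine shuttle varied more between replicates. Slc25a20, the carnitine-acylcarnitine translocase of the inner membrane, stood at 70.7 and 65.9 CPM in KO-labelled stressed, 56.5 and 74.4 in WT-labelled stressed, 73.7, 59.9 and 49.5 in KO-labelled normal, and 38.6, 61.2 and 59.7 CPM in WT-labelled normal libraries. Groups overlapped in all comparisons of Slc25a20, and its differences lay between 0.07 and 0.32 on the log2 scale with SEs of 0.20 to 0.24. Cpt2, which releases acyl-CoA in the matrix, stood at 61.6 and 50.5 CPM in KO-labelled stressed and 68.2 and 68.6 CPM in WT-labelled stressed libraries. Replicates A, B and C had 44.4, 43.4 and 69.0 CPM in the KO-labelled normal group, against 57.8, 57.4 and 51.2 CPM in the WT-labelled normal group. Replicate C of the KO-labelled normal group was the highest of all 10 libraries, so normal genotypes overlapped, as did KO-labelled stressed and normal libraries. WT-labelled stressed libraries were higher than KO-labelled stressed and WT-labelled normal ones, where 39.1% and 36.4% of all genes had groups apart. No difference of Cpt2 or Slc25a20 passed the test.

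The acyl-CoA dehydrogenases open each round of oxidation and differ by the chain length they prefer. Acadl, the long-chain enzyme, stood at 215 and 210 CPM in KO-labelled stressed and 183 and 168 CPM in WT-labelled stressed libraries. It stood at 187, 170 and 183 CPM in KO-labelled normal and 153, 164 and 147 CPM in WT-labelled normal libraries. Groups did not overlap in any of the 4 pairwise comparisons, with KO-labelled above WT-labelled and stressed above normal each time. The differences did not pass: KO against WT was 0.27 (SE 0.085, limma adjusted p = 0.382) in stressed and 0.22 (SE 0.070, limma adjusted p = 0.185) in normal HSCs, and stressed against normal was 0.24 (SE 0.078, limma adjusted p = 0.122) in KO-labelled and 0.19 (SE 0.078, limma adjusted p = 0.256) in WT-labelled HSCs. These comparisons share libraries in pairs and are not independent. Of all genes, 39.1% also had groups apart between genotypes in stressed HSCs and 19.5% in normal HSCs. Between stressed and normal, 33.1% did in KO-labelled and 36.4% in WT-labelled HSCs.

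Acadm, the medium-chain enzyme, varied least among the members, from 147 to 168 CPM over all 10 libraries. Its 95% intervals reached from -0.11 to 0.17 for KO against WT in normal HSCs and from -0.17 to 0.15 for stressed against normal in KO-labelled HSCs. Acadvl, the very-long-chain enzyme of the inner membrane, stood at 86.1 and 73.3 CPM in KO-labelled stressed, 81.2 and 74.9 in WT-labelled stressed, 94.4, 91.3 and 97.5 in KO-labelled normal, and 86.9, 73.6 and 81.0 CPM in WT-labelled normal libraries. The KO-labelled normal libraries were the 3 highest. The difference for KO against WT in normal HSCs was 0.23 (SE 0.097, limma adjusted p = 0.316), and that for stressed against normal in KO-labelled HSCs was -0.25 (SE 0.11, limma adjusted p = 0.261). Dvl2, which shares exon bases with it, had differences of -0.16 and 0.29 in the same comparisons (limma adjusted p = 0.689 and 0.397).

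Hadha and Hadhb encode the alpha and beta subunits of the mitochondrial trifunctional protein, which carries the hydratase, dehydrogenase and thiolase steps for long chains. Hadha stood at 123 and 115 CPM in KO-labelled stressed, 117 and 110 in WT-labelled stressed, 93.8, 100 and 99.2 in KO-labelled normal, and 110, 103 and 124 CPM in WT-labelled normal libraries. Hadhb stood at 137 and 115 CPM in KO-labelled stressed, 113 and 126 in WT-labelled stressed, 123, 112 and 114 in KO-labelled normal, and 97.4, 96.3 and 104 CPM in WT-labelled normal libraries. In normal HSCs the genotypes did not overlap for either subunit (as for 19.5% of all genes), with Hadha lower and Hadhb higher in KO-labelled libraries. Neither passed the test: the differences were -0.20 (SE 0.087, limma adjusted p = 0.341) for Hadha and 0.23 (SE 0.090, limma adjusted p = 0.276) for Hadhb. In KO-labelled HSCs Hadha differed by 0.28 between stressed and normal (SE 0.097, limma adjusted p = 0.147), and in WT-labelled HSCs Hadhb differed by 0.27 (SE 0.10, limma adjusted p = 0.187).

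The level of Hadha relative to Hadhb was also taken within each library, a ratio chosen after the values were seen and given without a test. As a difference of log2 CPM it was -0.16 and -0.01 in KO-labelled stressed and 0.04 and -0.20 in WT-labelled stressed libraries. It was -0.40, -0.16 and -0.20 in KO-labelled normal libraries, against 0.18, 0.10 and 0.26 in WT-labelled normal libraries. The 3 WT-labelled normal libraries were thus the highest of all 10. Group means were -0.25 ± 0.13 (SD, n = 3) for KO-labelled normal, against 0.18 ± 0.08 (SD, n = 3) for WT-labelled normal HSCs. They were -0.09 ± 0.10 (SD, n = 2) for KO-labelled stressed, against -0.08 ± 0.17 (SD, n = 2) for WT-labelled stressed HSCs.

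Hadh, the 3-hydroxyacyl-CoA dehydrogenase for short and medium chains, and Acaa2, the matrix thiolase that closes the round, overlapped between groups in every comparison. Hadh stood at 134 and 117 CPM in KO-labelled stressed, 138 and 129 in WT-labelled stressed, 99.6, 135 and 113 in KO-labelled normal, and 112, 143 and 118 CPM in WT-labelled normal libraries. Acaa2 stood at 108 and 83.4 CPM in KO-labelled stressed, 126 and 96.4 in WT-labelled stressed, 101, 80.5 and 76.4 in KO-labelled normal, and 91.0, 102 and 92.1 CPM in WT-labelled normal libraries. The largest difference of Hadh in a pairwise comparison was 0.12 and that of Acaa2 was 0.22, with SEs of 0.12 to 0.17.

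In the sum over the list, stressed libraries lay higher. The summed level of the 10 members was 1389 and 1254 CPM in KO-labelled stressed and 1315 and 1260 CPM in WT-labelled stressed libraries. It was 1178, 1159 and 1139 CPM in KO-labelled normal and 1141, 1193 and 1190 CPM in WT-labelled normal libraries, all below the 4 stressed ones. Without Cpt1a the sum was 1095 and 983 CPM in KO-labelled stressed and 1050 and 1016 CPM in WT-labelled stressed libraries, against 976, 956 and 952 CPM in KO-labelled normal and 895, 957 and 935 CPM in WT-labelled normal libraries. The stressed libraries thus stayed above the normal ones, though the lowest KO-labelled stressed sum (983 CPM) lay close to the highest KO-labelled normal sum (976 CPM).

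Medians of the log2 differences over the members stood close to those over all genes between genotypes. They were 0.05 for the list and 0.00 for all genes in stressed HSCs, and -0.04 and -0.01 in normal HSCs. For stressed against normal the list median was 0.14 in KO-labelled HSCs, where 8 of 10 members were higher, and 0.15 in WT-labelled HSCs, where 9 of 10 were higher. The medians of all genes were 0.00 and 0.01 there, with 50.1% and 51.1% of genes higher. Acadvl and Acadm were the lower members in KO-labelled HSCs. Of the higher members, Cpt2, Hadhb and Acaa2 in KO-labelled HSCs changed sign when a library was left out. So did Cpt1a and Hadha in WT-labelled HSCs. Both conditions' sums and medians draw on the same libraries. Groups did not overlap for 4 of 10 members between genotypes in stressed HSCs (39.1% of all genes), 5 of 10 in normal HSCs (19.5%), 4 of 10 for stressed against normal in KO-labelled HSCs (33.1%) and 4 of 10 in WT-labelled HSCs (36.4%).

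**Figure D3:**
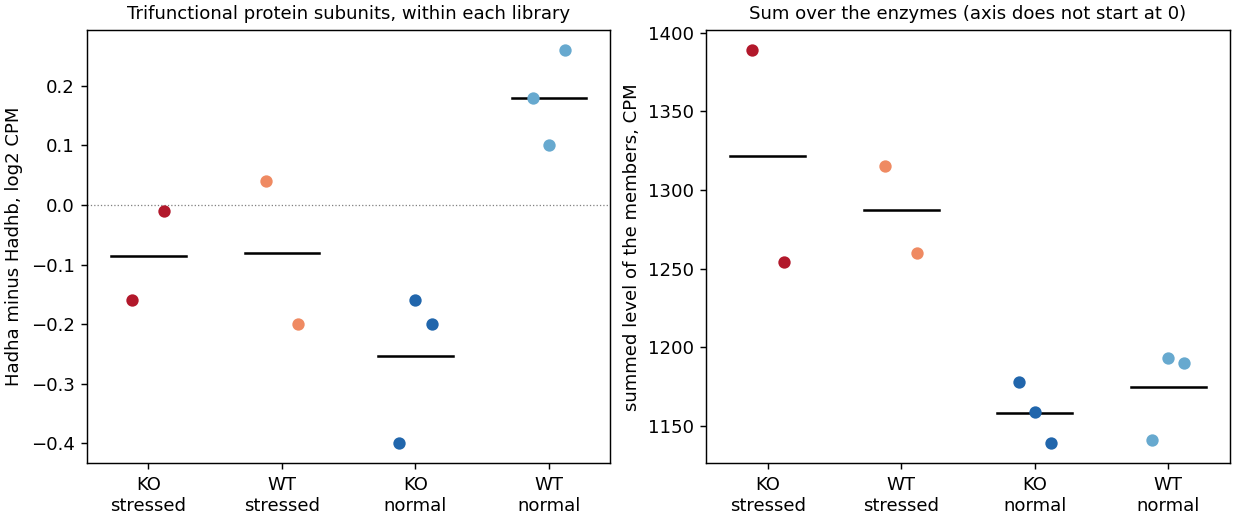
Left, the log2 CPM of Hadha minus that of Hadhb within each library; right, the summed level of the 10 members in CPM, on an axis that does not start at 0. Points are libraries and lines are group means; the WT-labelled normal libraries are the 3 highest on the left (0.10 to 0.26), and the 4 stressed libraries are the highest on the right (1254 to 1389 CPM).

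The other genes of fatty acid metabolism were grouped by role in 9 further lists. Tested were 10 genes of uptake and activation, 4 of the carnitine shuttle, 18 further mitochondrial oxidation enzymes and 3 of electron transfer. The other lists had 15 genes of peroxisomal oxidation, 22 regulators, 6 PPAR targets, 14 of synthesis and 9 of lipid droplet lipolysis. Between genotypes 0 genes of these lists were called by limma in either condition, with 6 higher and 5 lower in stressed HSCs at an unadjusted p under 0.05, where 8.88% of all genes passed that level. In normal HSCs 7 stood higher and 7 lower at that level, which 13.9% of all genes passed. Among them were Eci1 (0.33, SE 0.10, limma adjusted p = 0.167) and Decr1 (0.34, SE 0.11, limma adjusted p = 0.171), auxiliary enzymes for unsaturated fatty acids. Ucp2, an inner membrane carrier, was another (-0.18, SE 0.043, limma adjusted p = 0.0689). Ppard, the PPAR-delta receptor that switches on oxidation genes, stood at 2.04 and 0.86 CPM in KO-labelled stressed and 2.27 and 2.35 CPM in WT-labelled stressed libraries. It stood at 1.18, 1.61 and 1.16 CPM in KO-labelled normal and 2.85, 2.75 and 2.28 CPM in WT-labelled normal libraries. The difference in normal HSCs was -1.01 (SE 0.44, limma adjusted p = 0.341) and did not pass. Ppara, the PPAR-alpha receptor, had 0 reads in 7 of 10 libraries and at most 0.569 CPM.

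With stress, both oxidation and synthesis lists held called genes. Scd2, a stearoyl-CoA desaturase of fatty acid synthesis, fell in both genotypes. KO-labelled HSCs had a difference of -0.50 (limma adjusted p = 0.000307) and WT-labelled HSCs one of -0.36 (limma adjusted p = 0.00352), each with an SE of 0.052. The KO-labelled call held in 20 of 20 refits (limma adjusted p = 0.000291 without KO-labelled normal replicate A), and the WT-labelled call in 19 of 20, being lost without a variance trend (limma adjusted p = 0.0852). It stood at 432 and 416 CPM in KO-labelled stressed, 503 and 477 in WT-labelled stressed, 572, 603 and 626 in KO-labelled normal, and 641, 632 and 610 CPM in WT-labelled normal libraries. Fads2, a desaturase of polyunsaturated fatty acids, fell in WT-labelled HSCs by 0.43 (SE 0.099, limma adjusted p = 0.0394), with a difference of -0.37 (limma adjusted p = 0.0641) in KO-labelled HSCs. The call was lost in 11 of 20 refits, among them those without WT-labelled stressed replicate B (-0.31, limma adjusted p = 0.238), without any 1 WT-labelled normal replicate (0.106, 0.0956 and 0.129 for A, B and C), and without KO-labelled stressed replicate A or B or KO-labelled normal replicate C (0.0598, 0.0595 and 0.0544). Without WT-labelled stressed replicate A it was kept (limma adjusted p = 0.0455). In all, the synthesis list had 1 of 14 members called lower and none higher in KO-labelled HSCs (list median -0.12), where 4.50% of all genes were called, and 2 of 14 lower and none higher in WT-labelled HSCs (median -0.08), where 3.30% were.

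Etfb, the beta subunit of the flavoprotein that takes electrons from the acyl-CoA dehydrogenases, rose in WT-labelled stressed HSCs by 0.54 (SE 0.12, limma adjusted p = 0.0366). The call was lost in 10 of 20 refits, among them those without WT-labelled stressed replicate A or B (limma adjusted p = 0.219 and 0.0775), without any 1 WT-labelled normal replicate (0.117, 0.0956 and 0.0879 for A, B and C), and without KO-labelled stressed replicate A or B (0.0545 and 0.0528). Its difference in KO-labelled HSCs was 0.47 (limma adjusted p = 0.0526). It stood at 51.3 and 46.9 CPM in KO-labelled stressed, 48.4 and 43.3 in WT-labelled stressed, 35.5, 35.7 and 34.9 in KO-labelled normal, and 30.2, 32.0 and 32.6 CPM in WT-labelled normal libraries. All 4 stressed libraries were thus above all 6 normal ones. Within a genotype, stressed and normal libraries stood apart for 33.1% of all genes in KO-labelled and 36.4% in WT-labelled HSCs. Of the 3 electron transfer genes, 1 was called higher in WT-labelled HSCs by limma, where 3.30% of all genes were called. In KO-labelled HSCs 0 of the 3 were called, against 4.50% of all genes. There 1 of the 3 had an unadjusted p under 0.05, against 17.9% of all genes. In the WT-labelled comparison the megakaryocyte markers moved as given above. The erythroid markers summed to 108 to 119 CPM in WT-labelled stressed against 194 to 228 CPM in WT-labelled normal libraries, and the granulocyte and monocyte markers to 398 to 420 against 338 to 379 CPM. The latter sum was mostly Lyz2, with 320 and 299 against 282, 260 and 247 CPM. The part of these cell types in the changes of Etfb, Scd2 and Fads2 was not tested.

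Further calls with stress were made in KO-labelled HSCs, where 4.50% of all genes were called. The part of the cell type markers given above with Cpt1a was not tested for these calls. Pcca, a subunit of propionyl-CoA carboxylase, which handles the end product of odd-chain oxidation, rose by 0.71 (SE 0.15, limma adjusted p = 0.0243), the 1 of 18 further mitochondrial oxidation genes called. That call was lost without KO-labelled stressed replicate A or B (limma adjusted p = 0.0936 and 0.184) and without KO-labelled normal replicate A or C (0.0548 and 0.0541), and in 6 of 20 refits in all. Ucp2 rose by 0.25 (SE 0.048, limma adjusted p = 0.0144), the 1 of 6 measured PPAR targets called. It kept its call without KO-labelled normal replicate A (limma adjusted p = 0.0273) and lost it in 4 of 20 refits, among them those without KO-labelled stressed replicate A or B (0.0734 and 0.131). Slc27a1, a fatty acid transport protein of the cell surface, fell by 0.67 (SE 0.15, limma adjusted p = 0.0318), the 1 of 10 uptake and activation genes called. Its call was lost in 8 of 20 refits, among them those without KO-labelled stressed replicate A or B (limma adjusted p = 0.247 and 0.0567), KO-labelled normal replicate A or C (0.0783 and 0.0949) or WT-labelled normal replicate C (0.0516). The carnitine shuttle list (4 tested), peroxisomal oxidation (15), regulators (22) and lipid droplet lipolysis (9) had 0 genes called by limma in either genotype. Of all genes 4.50% were called in KO-labelled and 3.30% in WT-labelled HSCs. In KO-labelled HSCs 1, 3, 1 and 2 genes of these lists had an unadjusted p under 0.05, against 17.9% of all genes. In WT-labelled HSCs 0, 0, 2 and 1 did, against 16.8% of all genes. Whether the changes of these genes differ between genotypes did not pass the test for any of them.

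**Figure D4:**
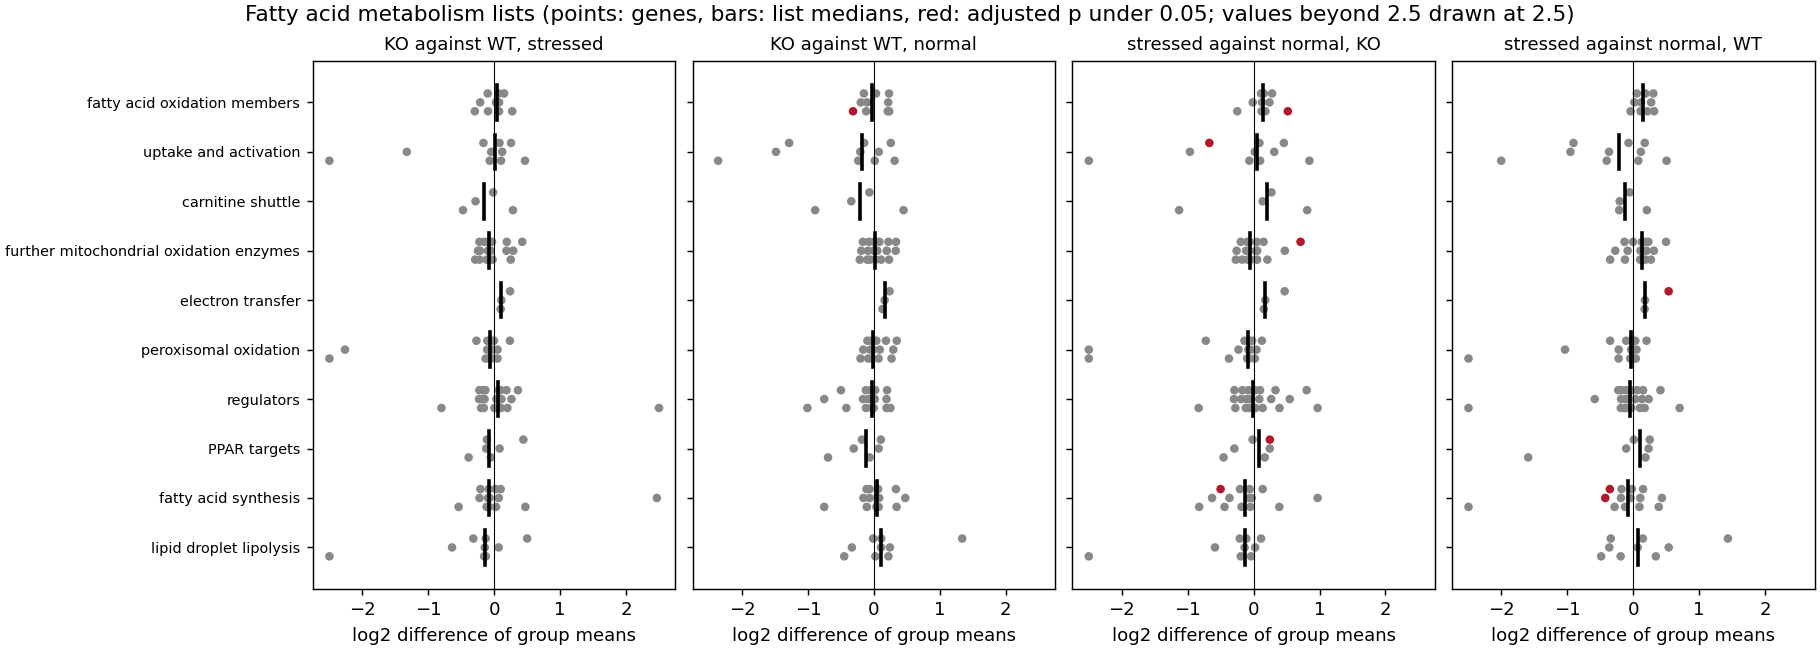
Log2 differences of group means for the 10 members and for the genes of 9 further lists of fatty acid metabolism, in 4 comparisons, with points for genes, bars for list medians and red for an adjusted p under 0.05; values beyond 2.5 in size are drawn at 2.5. Red points outside the members appear only in the comparisons of stressed against normal, 4 in KO-labelled HSCs and 3 in WT-labelled HSCs.

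The genes whose pattern over the 10 libraries was most like that of Cpt1a were found by the root mean square difference of log2 values centred on each gene's mean. They were Cpsf2 (0.0791), Chek2 (0.0811), Prpf38b (0.0868), Pcm1 (0.0876) and Iws1 (0.0880), where the values of Cpt1a itself deviate from its mean by 0.20 on this scale. Cpsf2, a subunit of the complex that cleaves transcripts at their 3′ end, stood at 191 and 187 CPM in KO-labelled stressed, 164 and 173 in WT-labelled stressed, 150, 140 and 134 in KO-labelled normal, and 159, 165 and 164 CPM in WT-labelled normal libraries. As for Cpt1a, the KO-labelled normal libraries were the 3 lowest and the KO-labelled stressed libraries the highest.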

How the data were processed

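Gene expression was measured by RNA sequencing in 10 libraries of sorted mouse HSCs. The submitters' processing notes list Bowtie2, featureCounts and mm10; versions, gene annotation and use of strand are not given in the sources used here. The deposited values are log2 CPM. The authors' use of limma voom is known only by the table's name, and the libraries share one distribution of values, as quantile normalization gives, so differences are relative to the other genes. Depth was estimated by reading steps of 10 to 100 reads among low values.

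Genes were kept where 2 or more libraries exceeded a log2 value of 0, and fitted with limma 3.58.1 in R 4.3.3 (4 group means, all 10 libraries, 6 residual degrees of freedom, variance trend, no block). P-values were adjusted by Benjamini-Hochberg over all 15143 genes, and a gene is called at an adjusted p under 0.05. The fit was tested on simulated data. Exon lengths and coordinates come from GENCODE vM21, which held 20199 of the genes. Transcript copies were sought with blastn 2.17.0 (at least 90% identity over 200 bases), and plots were drawn in Python 3.11.15. No pairing by replicate letter was seen: deviations of same-letter libraries correlated between -0.024 and 0.0375. In groups of 2 libraries such deviations mirror each other, so this check could not settle whether letters pair libraries.

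Members and lists were chosen with earlier results of these data known. Named besides the members are called genes of the lists, otherwise at most 3 a list ranked by p, and 5 genes most like Cpt1a; Ppara and Dvl2 were added after their values were seen. Alternatives covered the variance model, filter, pseudocount, scaling, gene length, weights, block, threshold and the libraries fitted. Refits of the called list genes were added after seeing the data.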

Additional observations from a re-analysis of the deposited data

How the results depend on the processing

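Counts of called members did not change in 22 alternatives each for KO against WT in stressed HSCs (0), for stressed against normal in KO-labelled HSCs (1, Cpt1a) and in WT-labelled HSCs (0), or in 21 alternatives for the difference between these changes (0). For KO against WT in normal HSCs the count was 1 (Cpt1a). It was 0 in 12 of 22 alternatives: at an adjusted p under 0.01, with no variance trend, with the values corrected for gene length, with only the groups compared, with the replicate block (limma adjusted p = 0.0613), and without any of 7 libraries, so that the count ranged from 0 to 1 when libraries were left out. No other count of called members changed under the replicate block. Refits of the 7 calls in the other lists, added after seeing the data, kept every sign. Under the replicate block limma adjusted p was 0.0825 for Slc27a1, 0.0942 for Etfb and 0.111 for Fads2, which lost their calls. The causes were not tested.

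Of 50 member differences, 32 kept their sign in every alternative, among them both calls of Cpt1a. The other 18, none of them called, changed sign when a library was left out. For KO against WT in normal HSCs the ranges were -0.005 to 0.352 (Slc25a20) and -0.001 to 0.064 (Acadm). For KO against WT in stressed HSCs the ranges were -0.124 to 0.273 (Slc25a20), -0.09 to 0.143 (Acadvl), -0.053 to 0.198 (Hadhb) and -0.193 to 0.006 (Hadh). For stressed against normal in KO-labelled HSCs the ranges were -0.016 to 0.345 (Cpt2), -0.045 to 0.017 (Acadm), -0.012 to 0.239 (Hadhb) and -0.032 to 0.34 (Acaa2). For stressed against normal in WT-labelled HSCs the ranges were -0.009 to 0.114 (Cpt1a), -0.105 to 0.015 (Acadvl) and -0.046 to 0.091 (Hadha). For the difference between these changes the ranges were -0.32 to 0.041 (Cpt2), -0.334 to 0.08 (Slc25a20), -0.004 to 0.116 (Acadl), -0.093 to 0.128 (Hadh) and -0.252 to 0.13 (Acaa2). The difference between these changes also turned for Hadh after removal of the length trend (-0.013) or with weights per library (-0.017), and for Acaa2 after removal of the length trend (0.075). With 2 or 3 libraries per group, differences of the size seen in Hadh, Cpt2, Slc25a20 and Acaa2 could not be told from replicate spread. By the depth estimated at low values, each member value rested on about 1160 reads or more.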
